A study of Sus scrofa with 12 samples.

Results

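Motile cilium axoneme genes are described here in porcine oviduct epithelial cells, from bulk 3′ mRNA sequencing of 12 libraries in 3 groups of 4. The genes were taken by symbol: members of the axonemal dynein, dynein assembly factor, regulatory complex, radial spoke, cilia and flagella associated protein (CFAP), tektin and docking complex families, with single named components such as CCDC39, SPAG6, SPEF2, ZMYND10, TPPP3 and ROPN1L. The rule used no measured value, though the members were chosen with earlier results of these data known. It found 46 of 30461 gene rows, which carried 45 symbols, and 44 of these genes passed the filter on low counts among 14070 tested rows. Only 13259 of the gene rows carry a symbol, and 35.0% of the tested genes have none. Axoneme genes on rows without a symbol could not be found, so the set may leave out part of the axoneme. The fresh group was epithelial cells freshly isolated by scraping from the oviduct of the pig. The other groups were spheroids, 3-dimensional clusters that such cells form in culture, made in DMEM/F12 or in a medium the labels name Incubation Medium. The library names add FBS to the DMEM/F12 spheroids and Diff to the others, which the labels do not explain. The labels give neither the composition of the media nor the strain, age, number or cycle stage of the animals, nor the days in culture, and they do not say whether animals were pooled.

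The axoneme is the microtubule skeleton of a cilium. In a motile cilium a ring of doublet microtubules surrounds a central pair, and outer and inner dynein arms on the doublets walk along the neighbouring doublet to bend it. Radial spokes and the central pair apparatus regulate the arms, the nexin-dynein regulatory complex links the doublets, and inner proteins such as tektins line the doublet wall. The arms are built in the cytoplasm by dedicated assembly factors before they enter the cilium. In the oviduct, multiciliated epithelial cells beat to move fluid, gametes and embryos, beside secretory cells. RefSeq gene names for the pig were available here without sequences, so no sequence is shown.

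Library totals were 5045187 to 6026881 counts in fresh cells, 7583552 to 8068187 in DMEM/F12 spheroids and 7585780 to 8603774 in incubation medium spheroids. Libraries that carry the same replicate number in different groups deviated together, and a fit with that number as a block is given where it changes a call. Nothing in the labels says that the libraries came from separate animals or cultures, so p-values measure the spread between these libraries, which may be technical. CPM here are counts of a gene relative to library size, with library sizes scaled by the trimmed mean of M-values (TMM), and n is 4 libraries per group throughout. A gene is called where edgeR's quasi-likelihood test gave a Benjamini-Hochberg adjusted p under 0.05 over all tested genes.

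Nearly the whole set was lower in spheroids than in fresh cells. In DMEM/F12 spheroids 42 of the 44 tested genes were called lower and 0 higher, where 35.7% of all tested genes were called lower and 35.1% higher. In incubation medium spheroids 41 were called lower and 0 higher, where 35.8% of all tested genes went each way. The members were chosen with earlier results of these data known, which may bear on this contrast. No further gene was higher at an unadjusted p under 0.05 or with DESeq2 in either medium (0 in each). The 41 genes lower in incubation medium were also lower in DMEM/F12; the fresh cell libraries serve in both comparisons. The median log2 fold change of the 44 genes was -2.63 in DMEM/F12 and -2.58 in incubation medium, against -0.01 in each for all tested genes. The spheroid and fresh libraries did not overlap, with spheroids lower, for 42 genes in DMEM/F12 and 41 in incubation medium; over all tested genes this share was 32.9% and 32.5%. The filter on low counts can favour genes that are high in 1 group: 42 of the 44 genes pass it in the 8 spheroid libraries alone, and SPAG16 and CFAP107 pass only through the fresh cells. Both are included in the counts of genes called lower and in the medians, though the filter itself favours such a call for them. In bulk RNA, fewer ciliated cells and less of these RNAs per ciliated cell cannot be told apart.

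The genes did not fall to the same extent. The mean level in DMEM/F12 spheroids was under 10% of the fresh cell mean for 12 genes, 10 to 30% for 22 and 30% or more for 10. In incubation medium these counts were 10, 23 and 11. The heat map shows both spheroid groups dark beside the fresh cells, with CFAP36, DNAI7, CFAP298 and CFAP410 as lighter lines.

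**Figure D1:**
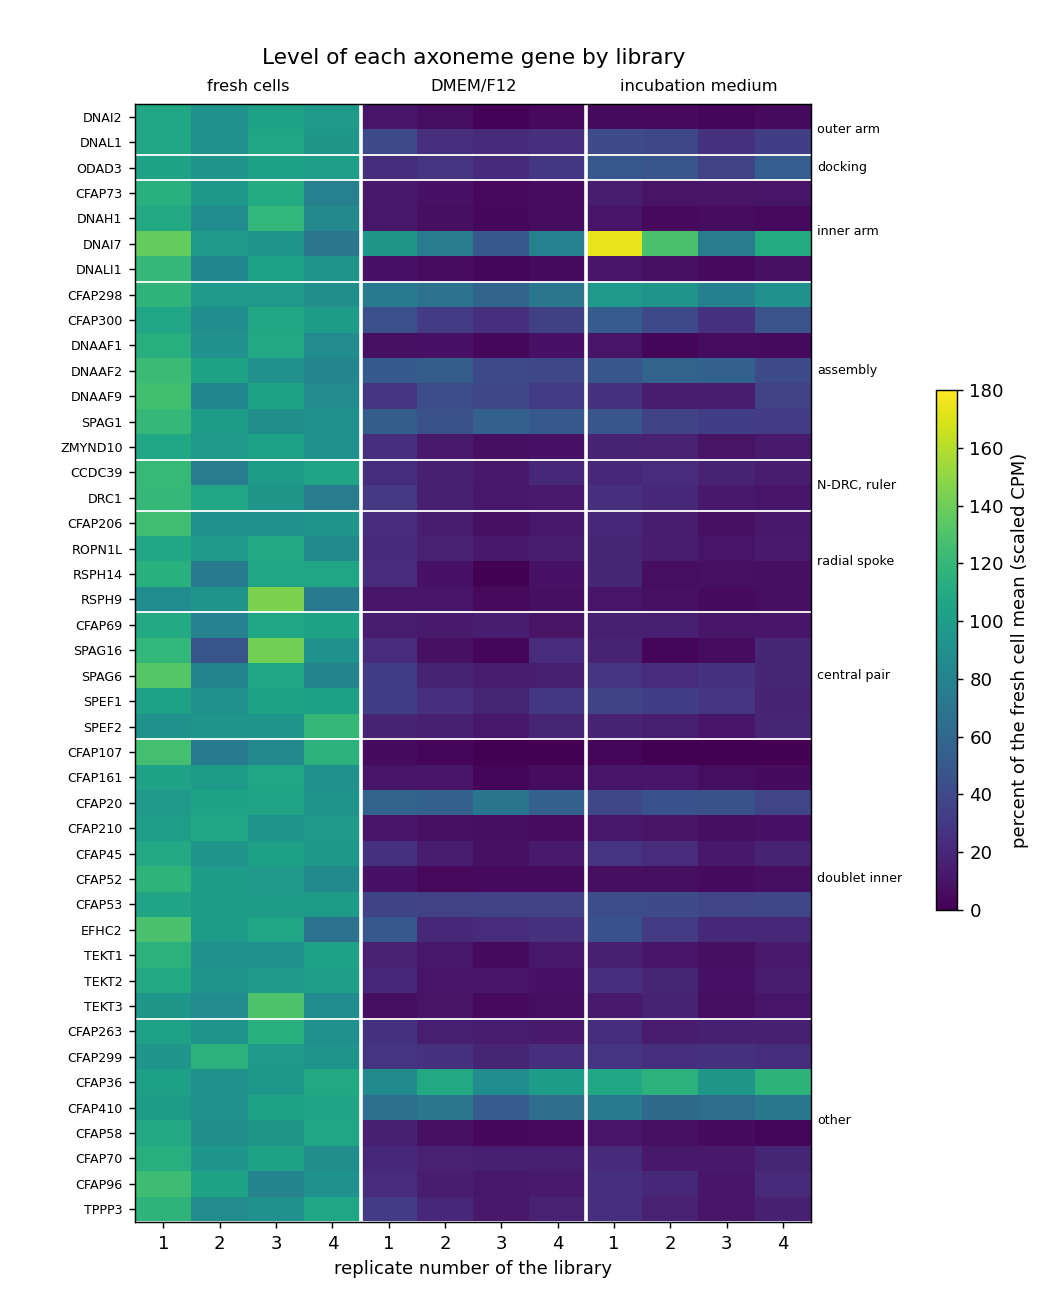
Level of each of the 44 tested axoneme genes (rows, by structural role) in each of the 12 libraries (columns, by group and replicate number), as a percentage of that gene's mean TMM-scaled CPM in the 4 fresh cell libraries. Most genes are dark in all 8 spheroid libraries, while CFAP36, DNAI7, CFAP298 and CFAP410 stay at 63.3% or more of the fresh mean in both media.

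Outer dynein arms generate most of the sliding force. DNAI2 (ENSSSCG00025067394), an intermediate chain that holds the outer arm together, was at 72.4, 62.2, 69.6 and 65.3 CPM in fresh cell replicates 1 to 4. It was at 6.93, 4.53, 1.32 and 3.24 CPM in DMEM/F12 and 3.58, 3.07, 2.09 and 3.36 CPM in incubation medium spheroids. The spheroid libraries lay far below the fresh ones, and the log2 fold changes were -4.05 (SE 0.27, adjusted p = 1.12e-08) and -4.47 (SE 0.28, adjusted p = 6.56e-09). DNAL1 (ENSSSCG00025014568), a light chain of the same arm, fell less. Its libraries held 47.9, 40.7, 47.3 and 42.5 CPM in fresh cells, 17.6, 10.9, 9.92 and 10.9 CPM in DMEM/F12 and 18.3, 17.5, 11.4 and 14.8 CPM in incubation medium. That left 27.7% and 34.7% of the fresh mean (log2 fold changes -1.85 and -1.53, adjusted p = 4.15e-07 and 2.37e-06), against 5.95% and 4.49% for DNAI2. ODAD3 (ENSSSCG00025020515), part of the docking complex that anchors the outer arm to the doublet, went from 18.7 ± 0.838 CPM (mean ± SD) to 4.72 ± 0.622 in DMEM/F12 and 8.74 ± 1.44 in incubation medium. No spheroid library reached a fresh one (log2 fold changes -1.98 and -1.11, adjusted p = 4.54e-08 and 8.66e-06). The symbol ODAD3 stood on 2 rows with the same count in 11 of 12 libraries, and 6 libraries held fractional counts there, so 1 row is given here and ODAD3 is counted once.

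Inner dynein arms shape the waveform, and 3 of the 4 genes in this role were among the steepest falls. DNALI1 (ENSSSCG00025028043), the light intermediate chain of inner arms, was at 93.6, 65.1, 80.4 and 72.7 CPM in fresh cells. It was at 6.81, 4.88, 1.98 and 4.32 CPM in DMEM/F12 and 8.35, 6.54, 3.45 and 6.18 CPM in incubation medium. The groups were far apart, and the log2 fold changes were -4.10 (SE 0.27, adjusted p = 9.01e-09) and -3.66 (SE 0.26, adjusted p = 1.81e-08). DNAH1 (ENSSSCG00025015220), the dynein heavy chain analysed here and an inner arm motor, fell from 41 ± 6.85 to 2.94 ± 1.29 and 2.63 ± 1.15 CPM (log2 fold changes -3.79 and -3.94). CFAP73 (ENSSSCG00025061774), linked to inner arm assembly, fell from 31.3 ± 5.18 to 2.45 ± 1.01 and 3.39 ± 0.616 CPM (log2 fold changes -3.66 and -3.20). The fourth gene, DNAI7 (ENSSSCG00025064757), an intermediate chain also known as CASC1, stood apart. It was at 16, 11.3, 11 and 8.23 CPM in fresh cells, 11.1, 8.83, 5.69 and 9.13 CPM in DMEM/F12 and 20.2, 14.9, 8.86 and 12.9 CPM in incubation medium. All 3 groups overlapped, and it was called against fresh cells in neither medium (log2 fold changes -0.42 and 0.28, SE 0.27 and 0.26, adjusted p = 0.17 and 0.339). With the replicate block DNAI7 was called lower in DMEM/F12 (-0.43, SE 0.17, adjusted p = 0.0303), which made 43 genes lower there, beside 37.7% of all tested genes.

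Dynein arm assembly factors split into steep and shallow changes. DNAAF1 (ENSSSCG00025048390), a leucine-rich repeat factor, was at 24.5, 19.7, 23.6 and 18.8 CPM in fresh cells. It kept 1.82, 1.86, 0.794 and 1.92 CPM in DMEM/F12 and 2.15, 0.667, 1.23 and 1.07 CPM in incubation medium, 7.38% and 5.91% of the fresh mean (log2 fold changes -3.73 and -4.04, adjusted p = 2.04e-08 and 1.35e-08). ZMYND10 (ENSSSCG00025071324), needed for outer and inner arms, fell from 146 ± 10.1 CPM to 19.5 ± 11.7 and 20.7 ± 5.84 (log2 fold changes -2.89 and -2.82, adjusted p = 9.59e-07 and 1.19e-06). CFAP300 (ENSSSCG00025057064), also required for arm assembly, kept more, at 25.8 ± 6.19 and 31.3 ± 8.78 CPM against 76.5 ± 6.7 in fresh cells (log2 fold changes -1.57 and -1.29). DNAAF9 kept 35.5% of the fresh mean in DMEM/F12 and 22.7% in incubation medium.

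CFAP298, DNAAF2 and SPAG1 had the smallest changes of this role in DMEM/F12; in incubation medium CFAP300 changed less than SPAG1. CFAP298 (ENSSSCG00025022942), a factor for arm assembly, was at 156, 129, 130.3 and 119 CPM in fresh cells, 99.5, 90.5, 77 and 94.1 CPM in DMEM/F12 and 129.7, 124, 103 and 121 CPM in incubation medium. The DMEM/F12 libraries lay below the fresh ones (log2 fold change -0.56, SE 0.11, adjusted p = 0.00027), while the incubation medium libraries overlapped them and were not called (-0.16, SE 0.11, adjusted p = 0.192). DNAAF2 (ENSSSCG00025070833), an assembly factor of the PIH family, went from 25.7 ± 4.56 to 11.7 ± 1.92 and 13 ± 1.9 CPM (log2 fold changes -1.13 and -0.99, adjusted p = 1.8e-05 and 6.16e-05). Its counts were not whole in 10 of 12 libraries, so its level is uncertain. SPAG1 (ENSSSCG00025073298), a tetratricopeptide repeat factor, went from 40.9 ± 5.63 to 20.7 ± 1.86 and 15.3 ± 2.86 CPM (log2 fold changes -0.98 and -1.41, adjusted p = 1.32e-05 and 4.32e-07). Of the 7 assembly factors, 7 were called lower in DMEM/F12 and 6 in incubation medium, with medians of -1.50 and -1.41. Over all tested genes the share called lower was 35.7% and 35.8%.

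The regulatory complex, its ruler and the radial spokes fell without exception among the genes tested. DRC1 (ENSSSCG00025060727), which scaffolds the nexin-dynein regulatory complex, was at 80.7, 72.6, 64.3 and 51.4 CPM in fresh cells, 19.9, 10.6, 7.67 and 8.82 CPM in DMEM/F12 and 16.2, 13.6, 8.37 and 6.72 CPM in incubation medium. Replicate 1 was the highest library in each group, and the log2 fold changes were -2.51 and -2.58 (adjusted p = 2.64e-06 and 2.15e-06). CCDC39 (ENSSSCG00025059815), part of the molecular ruler that sets the axonemal repeat, fell from 25.3 ± 4.69 to 4.56 ± 1.27 and 4.73 ± 0.985 CPM (log2 fold changes -2.46 and -2.41).

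ROPN1L (ENSSSCG00025007487), a radial spoke protein with an RIIa-type domain, was at 371, 333, 375 and 296 CPM in fresh cells. It was at 74.9, 56.6, 42.5 and 48.1 CPM in DMEM/F12 and 63, 48.7, 36.2 and 44.7 CPM in incubation medium. The groups did not overlap (log2 fold changes -2.63 and -2.83, SE 0.18 and 0.19, adjusted p = 1.76e-08 and 9.32e-09). RSPH9 (ENSSSCG00025046627), of the spoke head, fell from 36.1 ± 11.2 to 3.04 ± 1.08 and 2.69 ± 0.697 CPM, with fresh cell replicate 3 above the other fresh libraries (log2 fold changes -3.55 and -3.73, adjusted p = 3.2e-08 and 2.45e-08). RSPH14 (ENSSSCG00025061118) fell from 29.8 ± 5.41 to 3.08 ± 2.72 and 3.03 ± 1.65 CPM (log2 fold changes -3.26 and -3.28). Its DMEM/F12 libraries held 6.81, 2.61, 0.265 and 2.64 CPM, with replicate 1 highest and 2 counts in replicate 3, and without replicate 1 the log2 fold change there was -3.97. CFAP206, at the base of a spoke, kept 14.3% and 13.6% of its fresh mean; its counts were not whole in 9 libraries. All 4 spoke genes were called lower in both media, where 35.7% and 35.8% of all tested genes were. The spoke medians were -3.02 and -3.06.

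The central pair apparatus was lower too, in 5 of 5 genes in both media, counting SPAG16, which passed the filter only through the fresh cells. Of all tested genes, 35.7% were called lower in DMEM/F12 and 35.8% in incubation medium. SPEF2 (ENSSSCG00025015952), a projection protein of the central pair, was at 71.5, 73.3, 73.9 and 93.3 CPM in fresh cells, 14, 12.3, 9.26 and 14.3 CPM in DMEM/F12 and 14.2, 11.6, 8.49 and 14.4 CPM in incubation medium. The fresh libraries all lay above the spheroids (log2 fold changes -2.64 and -2.68, SE 0.17 and 0.17, adjusted p = 6.8e-09 and 6.19e-09). CFAP69 (ENSSSCG00025050930) fell from 63.5 ± 8.77 to 8.07 ± 1.54 and 8.28 ± 1.64 CPM (log2 fold changes -2.98 and -2.93). SPAG6 (ENSSSCG00025057806), an armadillo repeat protein of the same structure, fell from 67.3 ± 16.9 to 13.3 ± 5.77 and 16 ± 2.69 CPM (log2 fold changes -2.34 and -2.07). SPEF1, a microtubule binding protein of the central pair, kept 26.3% and 29.1% of its fresh mean. SPAG16 was low throughout, at 4.23 ± 1.73 CPM in fresh cells and 0.604 ± 0.429 and 0.475 ± 0.335 in the spheroids.

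Proteins inside or along the doublet wall made up the largest role, with 11 tested genes called lower in both media and medians of -3.13 and -3.07. These include CFAP107, which passed the filter only through the fresh cells. The share of all tested genes called lower was 35.7% and 35.8%. CFAP52 (ENSSSCG00025068134), a doublet inner protein, was at 104, 88.6, 86.9 and 76.4 CPM in fresh cells. It was at 7.66, 3.95, 4.63 and 4.8 CPM in DMEM/F12 and 6.8, 6.01, 4.8 and 6.31 CPM in incubation medium. These were among the lowest remaining shares, 5.91% and 6.71% (log2 fold changes -4.08 and -3.89, SE 0.17 and 0.17, adjusted p = 1.93e-10 and 2.77e-10). CFAP210 (ENSSSCG00025050300) fell from 133 ± 7.56 to 10.7 ± 2.65 and 12.5 ± 2.33 CPM (log2 fold changes -3.64 and -3.42, adjusted p = 2e-10 and 3.2e-10). CFAP161 kept 7.26% and 8.1%, and CFAP45 15.3% and 20.1% of the fresh mean.

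Tektins are filament proteins of the doublet. TEKT3 (ENSSSCG00025050060) was at 15, 13.6, 20.4 and 13.7 CPM in fresh cells, 1.09, 1.51, 0.662 and 1.08 CPM in DMEM/F12 and 2.03, 2.67, 1.11 and 1.61 CPM in incubation medium. Its spheroid libraries were all far below the fresh ones (log2 fold changes -3.82 and -3.07, adjusted p = 2.25e-08 and 9.64e-08). TEKT1 kept 11.4% and 11.8% and TEKT2 12.8% and 16.6% of the fresh mean. TEKT5 had 0 counts in all 12 libraries, which allows up to 3 counts per library, or 0.348 to 0.588 CPM. CFAP107 (ENSSSCG00025043738), another doublet inner protein, was at 5.57, 3.23, 3.74 and 5.1 CPM in fresh cells and at or under 3 counts in all 8 spheroid libraries. Against a floor of 3 counts per library it was at least 12-fold lower in DMEM/F12 and at least 11.5-fold lower in incubation medium. No p is given for it, since it passed the filter through the fresh cells.

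CFAP53 and CFAP20 were the shallowest changes in this role. CFAP53 (ENSSSCG00025042520), a doublet inner protein also found at centriolar satellites, was at 123, 114, 115 and 115 CPM in fresh cells, 43.3, 40.5, 40.3 and 41.4 CPM in DMEM/F12 and 50.3, 47.9, 43.6 and 44.6 CPM in incubation medium. Libraries of each group lay close together, and the log2 fold changes were -1.50 and -1.32 (SE 0.07 and 0.07, adjusted p = 7.13e-10 and 1.91e-09). CFAP20 (ENSSSCG00025058521), a protein of the inner junction of the doublet, was at 80.8, 86.6, 87.3 and 77.4 CPM in fresh cells, 48, 46.2, 58 and 45.9 CPM in DMEM/F12 and 32, 37.7, 37 and 31 CPM in incubation medium. The 3 groups did not overlap, and incubation medium was lowest (log2 fold changes -0.75 and -1.27, adjusted p = 7.71e-06 and 4.75e-08). EFHC2 kept 29.5% and 29.6% of the fresh mean.

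The remaining 8 genes have other or less defined places in the cilium. TPPP3 (ENSSSCG00025074844), a tubulin polymerization promoting protein used as a marker of ciliated cells, was at 508, 375, 394 and 458 CPM in fresh cells. It was at 136, 89.8, 52.8 and 70.5 CPM in DMEM/F12 and 105, 73, 47.8 and 67.6 CPM in incubation medium, with replicate 1 highest and replicate 3 lowest in both media (log2 fold changes -2.31 and -2.56, SE 0.27 and 0.27, adjusted p = 2.53e-06 and 9.95e-07). CFAP58 kept 8.26% and 6.68% of its fresh mean, CFAP70 17% and 16.1%, CFAP96 15.3% and 19.5%, CFAP263 17.1% and 17.4%, and CFAP299 23.9% and 25.5%. CFAP36 (ENSSSCG00025072285), which binds the small GTPase ARL3, was at 89.5, 81.1, 84.5 and 96 CPM in fresh cells, 75.9, 96.2, 76.9 and 86.8 CPM in DMEM/F12 and 94.5, 101, 83.4 and 102 CPM in incubation medium. The groups overlapped and it was not called (log2 fold changes -0.06 and 0.12, SE 0.10 and 0.10, adjusted p = 0.574 and 0.283), and the sign in DMEM/F12 turned with unscaled library totals (0.0129). CFAP410 (ENSSSCG00025012531), a protein of the ciliary base, went from 39.2 ± 2.4 to 24.8 ± 3.12 and 26.7 ± 2.37 CPM, with no spheroid library reaching a fresh one (log2 fold changes -0.66 and -0.55, adjusted p = 6.05e-05 and 0.000283).

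**Figure D2:**
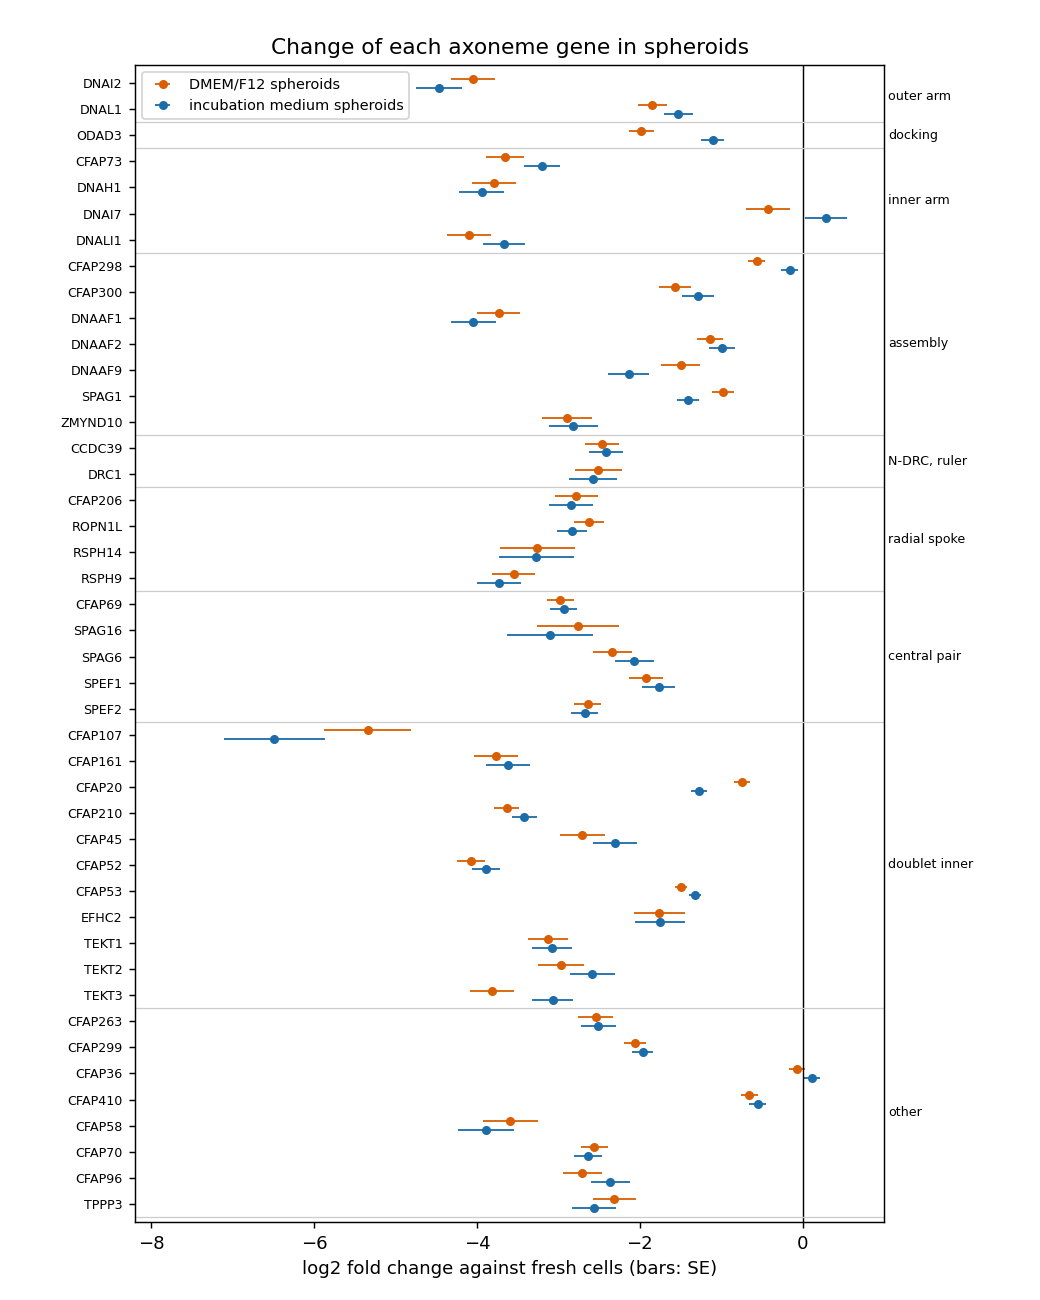
Log2 fold change of each tested axoneme gene against fresh cells (x axis, edgeR, bars show the SE) in DMEM/F12 and incubation medium spheroids, by structural role; both use the same fresh cell libraries. Most points lie well below 0, with DNAI2 at -4.05 and -4.47; CFAP36 and DNAI7 lie near 0, and the CFAP107 points are fitted values that depend on the prior count.

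Because the genes changed to different extents, their shares of the axoneme transcripts changed as well. Shares of the summed counts of the 45 genes need no scaling between libraries. CFAP298 took 4.51% ± 0.245 (SD) of the summed counts in fresh cells, 13% ± 1.32 in DMEM/F12 and 16.3% ± 1.08 in incubation medium. CFAP36 went from 2.99% ± 0.305 to 12.2% ± 2.42 and 13% ± 1.57, and CFAP20 from 2.83% ± 0.28 to 7.3% ± 2.04 and 4.77% ± 1.07. The share of ROPN1L went from 11.6% ± 0.875 to 7.83% ± 0.526 and 6.45% ± 0.502, and that of ZMYND10 from 4.94% ± 0.157 to 2.63% ± 1.06 and 2.75% ± 0.431. DNAI2 went from 2.29% ± 0.0587 to 0.539% ± 0.236 and 0.406% ± 0.0494. The share of CFAP299 stayed within the spread between libraries, at 0.908% ± 0.148, 0.909% ± 0.065 and 0.934% ± 0.157. A share can rise without a rise in level. CFAP36 had mean levels of 87.8 CPM in fresh cells, 83.9 in DMEM/F12 and 95.4 in incubation medium. These shares are a description, with no test.

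The summed level of the 45 genes was 2951 ± 229 CPM (SD) in fresh cells, 703 ± 132 in DMEM/F12 and 740.3 ± 115 in incubation medium, so 23.8% and 25.1% of the fresh level was left. Fresh cell libraries lay between 2761 and 3264 CPM and spheroid libraries between 568 and 880 CPM. Replicate 1 was the highest library of its group for 32 of 44 genes in DMEM/F12, for 34 in incubation medium and for 29 in fresh cells. Replicate 3 was the lowest for 33 genes in DMEM/F12 and 25 in incubation medium, but for 5 in fresh cells, where it was the highest for 10. Against the fresh library of the same number, the summed level in DMEM/F12 was 27.0% for replicate 1, 25.7% for replicate 2, 19.1% for replicate 3 and 23.3% for replicate 4. In incubation medium it was 26.9%, 27.6%, 20.2% and 25.6%. Replicate 3 thus had the lowest remaining level in both media. FOXJ1 (ENSSSCG00025047743), the transcription factor that switches on motile cilium genes, was likewise highest in replicate 1 and lowest in replicate 3 of the spheroids, at 133, 91.2, 54.8 and 74.8 CPM in DMEM/F12 and 82.1, 65, 51.2 and 71.6 CPM in incubation medium. In fresh cells FOXJ1 was at 439.7, 447, 455 and 471 CPM, where replicate 1 was the lowest.

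**Figure D3:**
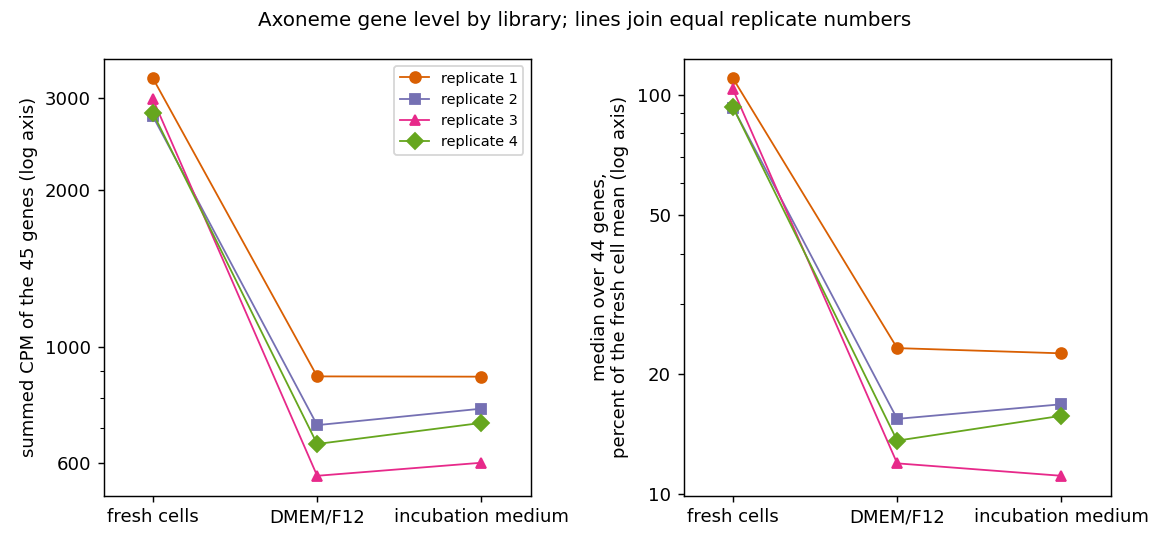
Summed CPM of the 45 axoneme genes (left) and the median over the 44 tested genes as a percentage of the fresh cell mean (right), per library on log axes, with lines joining libraries of the same replicate number. In both spheroid groups replicate 1 is highest, at 880 and 879 summed CPM, and replicate 3 lowest, at 568 and 602.

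The spheroid groups were compared with each other to ask whether the medium changed these genes. Of the 44 genes, 2 were called higher and 2 lower in incubation medium, where 12.7% of all tested genes were called higher and 12.3% lower. For all tested genes, 50.9% of the calls were higher with TMM and 33.4% with unscaled library totals. The median log2 difference of the 44 genes was 0.06, and those not called ranged from -0.64 for DNAAF9 (SE 0.26) to 0.74 for TEKT3 (SE 0.32), leaving out CFAP107, which was at the floor in both media. With standard errors of this size, smaller differences of such genes may have been missed.

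ODAD3 was the largest called difference. Its DMEM/F12 libraries held 4.38, 5.05, 4.04 and 5.4 CPM and its incubation medium libraries 9.31, 8.88, 6.71 and 10.1 CPM. Every incubation medium library lay above every DMEM/F12 library (log2 difference 0.88, SE 0.16, adjusted p = 0.00101). CFAP298 was also higher in incubation medium without overlap (log2 difference 0.41, SE 0.11, adjusted p = 0.012). CFAP20 was lower without overlap (-0.52, SE 0.10, adjusted p = 0.00145). SPAG1 was at 21.6, 18.4, 22.7 and 20.3 CPM in DMEM/F12 and 19.4, 15.1, 13.7 and 13.2 CPM in incubation medium, with replicate 1 of the latter overlapping the DMEM/F12 range. It was called lower (log2 difference -0.43, SE 0.14, adjusted p = 0.0332), and the call was lost when any of 6 single spheroid libraries was left out: DMEM/F12 replicate 1, 3 or 4, or incubation medium replicate 2, 3 or 4 (adjusted p 0.0588 to 0.0938, log2 differences -0.44 to -0.37).

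DNAI7 was not called between the media (log2 difference 0.71, SE 0.26, adjusted p = 0.0587), but within each replicate number the incubation medium library was the higher, and with the replicate block it was called (0.69, SE 0.15, adjusted p = 0.00326; range over its alternatives 0.00326 to 0.188). DNAI7 was also called with DESeq2 (adjusted p = 0.0423), and in edgeR without fresh cell replicate 1 (0.0485), DMEM/F12 replicate 1 (0.0445) or incubation medium replicate 3 (0.0199). DNAAF9, not called in the main comparison (log2 difference -0.64, adjusted p = 0.0889), was called lower in incubation medium with unscaled library totals (-0.74, adjusted p = 0.0459) and without incubation medium replicate 4 (-0.92, adjusted p = 0.0155). With that block 5 of the 44 genes were called, 3 higher and 2 lower, beside 16.6% and 16.2% of all tested genes. Leaving out DMEM/F12 replicate 1, the highest library of its group for most genes, raised the number called higher from 2 to 6, beside 10.7% of all tested genes, with CFAP45 (log2 difference 0.79), DNAI7 (0.85), DNAL1 (0.55) and SPAG6 (0.62) added. The direction for ODAD3, CFAP298, CFAP20 and SPAG1 held under each scaling tried.

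**Figure D4:**
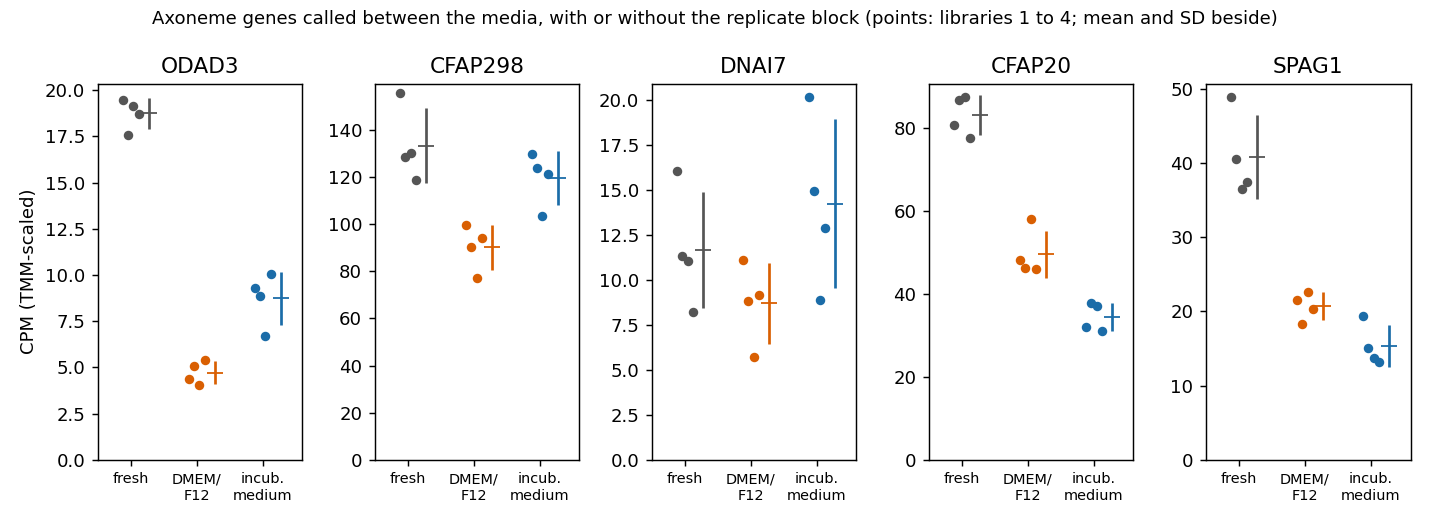
TMM-scaled CPM (y axes from 0, a scale per gene) of 5 axoneme genes in fresh cells, DMEM/F12 and incubation medium spheroids; points are libraries 1 to 4 from left to right, with the mean and SD beside them. ODAD3 and CFAP298 are higher and CFAP20 lower in incubation medium without overlap, while DNAI7 and SPAG1 overlap between the media.

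Further axoneme components that carry other symbols were also lower. Of a list of 30 such genes 15 had a row and 14 were tested. Of these, 12 were called lower in DMEM/F12 and 14 in incubation medium, where 35.7% and 35.8% of all tested genes were called lower. The medians were -2.29 and -2.18, and the remaining genes were not called. DYNLRB2 (ENSSSCG00025058511), a dynein light chain of the roadblock family, fell from 331 ± 66.3 to 37.3 ± 17.5 and 28 ± 10.9 CPM (log2 fold changes -3.15 and -3.56, adjusted p = 6.86e-07 and 2.49e-07). ENKUR (ENSSSCG00025040839), a doublet inner protein, was at 122 ± 7.83 CPM in fresh cells and 111 ± 3.83 and 106 ± 8.03 in the spheroids (log2 fold changes -0.14 and -0.21, adjusted p = 0.113 and 0.0257); its counts were not whole in 7 libraries.

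Regulators of multiciliated cells, with 9 of 12 genes tested, had 7 called lower in each medium, with 2 higher in DMEM/F12 and 1 in incubation medium, and medians of -2.35 and -2.59. CCNO, among the lower genes, had at most 3 counts in a DMEM/F12 library and 10 in an incubation medium library. It passed the filter through the fresh cells, which favours such a call. FOXJ1 itself changed by -2.35 and -2.75 on the log2 scale (adjusted p = 2.31e-07 and 6.08e-08). TRRAP (ENSSSCG00025043196), a cofactor with broad roles, was at 54.8 ± 3.98, 65 ± 3.78 and 54.2 ± 5.15 CPM in the 3 groups. Intraflagellar transport, which carries material along motile and primary cilia, had 20 of 26 genes tested and 19 called lower in each medium, with smaller medians of -0.94 in each. In that list IFT46 went from 255 ± 34.1 to 101 ± 15.6 and 70.5 ± 14.1 CPM. The cytoplasmic dynein and dynactin list had 15 of 18 genes tested, with 10 called higher and 2 lower in DMEM/F12 and 8 and 2 in incubation medium (medians 0.33 and 0.24). The 2 lower genes were the light chains DYNLL1 (log2 fold changes -0.69 and -0.83) and DYNLL2 (-0.67 and -1.09). DYNLRB1, the paralogue of DYNLRB2 in that list, rose from 161 ± 8.92 to 281 ± 24.6 and 243 ± 19.2 CPM (log2 fold changes 0.81 and 0.60, adjusted p = 1.1e-06 and 1.98e-05). Over all tested genes, 35.7% were called lower and 35.1% higher in DMEM/F12, and 35.8% went each way in incubation medium. The lists were not tested against each other.

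**Figure D5:**
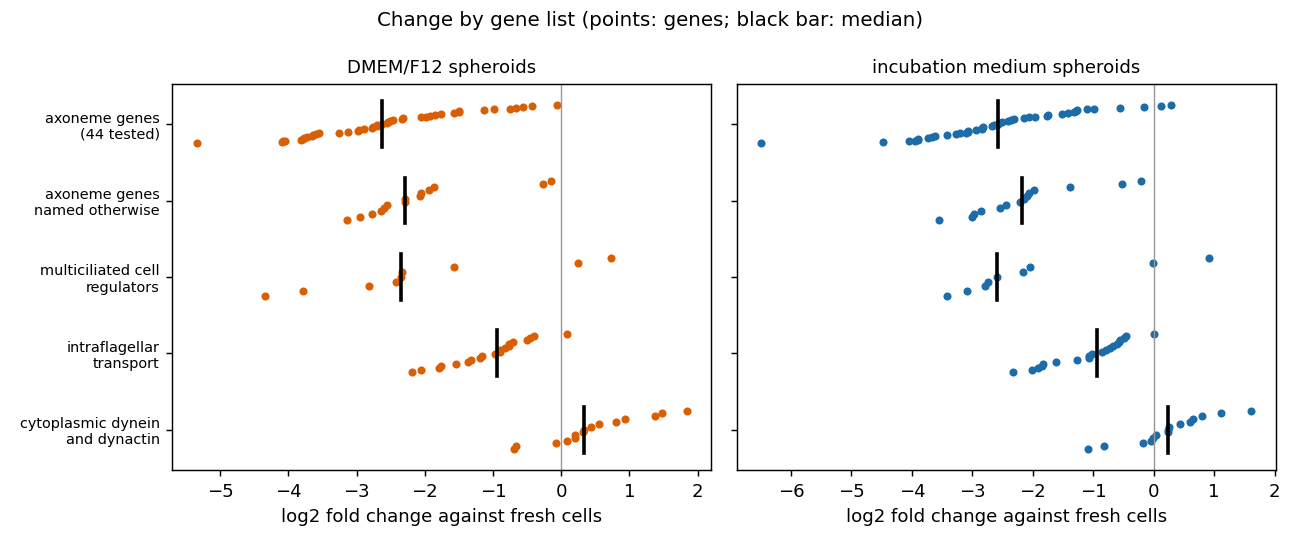
Log2 fold change against fresh cells of each tested gene (points; black bars are medians) for the axoneme genes and 4 other lists, in DMEM/F12 (left) and incubation medium spheroids (right). The axoneme medians are -2.63 and -2.58, those of intraflagellar transport -0.94 in each, and those of cytoplasmic dynein and dynactin 0.33 and 0.24.

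Marker lists of other cells were read beside these genes. Of all tested genes, 35.7% were called lower and 35.1% higher in DMEM/F12, and 35.8% went each way in incubation medium. The leukocyte counts lower, and the stromal count lower in DMEM/F12, are near these shares. The stromal, leukocyte and endothelial lists hold few tested genes, and no list was tested against these shares. Of 5 tested secretory cell markers 4 were lower and 1 higher in each medium. The lower genes were OVGP1 (22241, 400 and 471 CPM in the 3 groups), SLPI (4205, 436 and 491 CPM), ESR1 and PGR. MUC1 was the gene called higher (159, 545 and 474 CPM). The summed level of the list was 19608 to 30693 CPM in fresh cells, most of it OVGP1. That sum was 1175 to 2243 CPM in DMEM/F12 and 1236 to 2364 in incubation medium. All 11 proliferation genes were higher in each medium, with summed levels of 43.5 to 61.4, 394 to 459 and 430 to 649 CPM. Some were low in fresh cells, with at most 10 counts of TYMS and 11 of CCNB2 in a fresh cell library. Such genes passed the filter through the spheroids, which favours a call of higher for them. General epithelial markers, 8 genes on 9 rows, had 8 rows called higher and 1 lower in DMEM/F12 and 7 and 1 in incubation medium. A second row of KRT8, with at most 2 counts in a fresh cell library, is among those higher in each medium. The lower gene was EPCAM in DMEM/F12 (-0.52). In incubation medium it was CLDN4 (-0.71), which was called higher in DMEM/F12 (0.72). The rows summed to 4218 to 4906, 7093 to 8870 and 5047 to 6994 CPM. Of 6 tested stromal and smooth muscle markers, 2 were called lower and 1 higher in DMEM/F12 and 4 lower and 1 higher in incubation medium, with medians of -0.38 and -1.99. The collagen genes COL3A1 (24.1, 0.574 and 0.358 CPM) and COL1A2 (log2 fold changes -3.21 and -2.09) fell in both media. COL3A1 had at most 7 counts in a DMEM/F12 library and 4 in an incubation medium library. It passed the filter through the fresh cells, which favours a call of lower. COL1A1 was called lower in incubation medium (-3.19) but not in DMEM/F12 (-0.50, adjusted p = 0.32). TAGLN, an actin-binding protein of smooth muscle, was the gene called higher, at 266, 1119.9 and 380.2 CPM. It made up most of the summed level of the 7 genes, which was 253 to 415, 1074 to 1223 and 233 to 542 CPM, with DES at or under 3 counts in every library. Of 3 tested leukocyte markers 1, PTPRC, was called lower in each medium; the 7 genes of the list summed to 14.3 to 17.9, 6.84 to 17.2 and 4.03 to 14.3 CPM, with MS4A1 at or under 3 counts throughout. Of 4 tested endothelial markers, 2 were called higher and 1 lower in DMEM/F12 and 3 higher and 1 lower in incubation medium. CDH5 (11.4, 108 and 43 CPM) and KDR (20.9, 74.1 and 60.6 CPM) were higher in both media, while PECAM1 was lower (log2 fold changes -0.93 and -0.91). ESAM, called higher in incubation medium only, had at most 7 counts in a fresh cell library and likewise passed the filter through the spheroids. TEK, not tested, was at 1.51, 0.452 and 0.511 CPM. The 6 genes summed to 41.9 to 57.7, 137 to 253 and 92.6 to 149 CPM, with VWF at or under 3 counts throughout. The part of these cell types in the change of the axoneme genes was not tested.

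Counts that were not whole occurred in at least 1 library for 24 of the 45 genes, so their levels are uncertain where reads map to several features. Over the 20 tested genes with whole counts in all libraries, 19 were called lower in each medium, beside 35.0% and 35.9% of all genes with whole counts. The RefSeq gene table of Sscrofa11.1 held 34 of the 45 genes by symbol, and several of these overlap a protein-coding neighbour there. The other genes could not be checked for overlap. Neither the build nor the strand setting used for counting is given in the sources used here. These overlaps may therefore not hold for the annotation that was counted. Neighbours with values were TTC14 beside CCDC39 (log2 fold changes -0.23 and -0.13), HSDL1 beside DNAAF1 (-0.16 and -0.53), GNAZ beside RSPH14 (1.22 and 0.97), LRRC36 beside TPPP3 (-4.14 and -3.52) and RASSF1 beside ZMYND10 (-1.42 and -1.32). MBD1 beside CFAP53, GNL2 beside DNALI1, LOC106508146 beside SPEF2 and ZDHHC1 beside TPPP3 had no tested row under these symbols. Without strand, reads of such a pair cannot be told apart.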

How the data were processed

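RNA of 12 libraries (4 of fresh cells, 4 of DMEM/F12 and 4 of incubation medium spheroids) was measured by 3′ mRNA sequencing. Expected counts per gene and CPM were deposited by the authors in 1 table; the CPM columns were not used. Per the submitters' processing notes the tools were fastp 0.24.0, STAR 2.7.11, SAMtools 1.22.1 and featureCounts of Subread 2.1.1; the genome build and strand setting are not given in the sources used here. Of the nonzero counts, 19.1% to 20.5% per library were not whole, so counts were rounded before testing. CPM printed here were recomputed from the unrounded counts over TMM-scaled library sizes; 92 spike-in rows (at most 0.000614% of counts) were left out. Totals ran from 5045187 to 8603774 counts, and intervals and floors of 3 counts cover counting error only.

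All 12 libraries were fitted once in edgeR 4.0.16 (R 4.3.3) with a mean per group, filterByExpr (minimum count 10), TMM and the quasi-likelihood test, with Benjamini-Hochberg adjustment over 14070 tested genes. SE is the log2 fold change over the square root of F. Same-numbered libraries of different groups correlated above 0.1 in 12 of 12 pairs over deviations from group means (0.196 to 0.293 with fresh cells, 0.394 to 0.516 between the media). Each correlated best with its own number in 24 of 24 comparisons. The numbers were therefore taken as pairs in an alternative fit with a replicate block. The main fit, which gave the values unless stated, had no block. The labels do not state a shared source. Alternatives were other scalings, DESeq2 1.42.0, other filters, only the groups compared, whole counts, the replicate block and each library left out.

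Genes named with full values were the 3 most abundant per role, the 5 lowest and 5 highest fold changes against fresh cells, those called between media, up to 2 per other list by CPM and FOXJ1; other members are given briefly. In the comparison of media CFAP45, DNAL1, SPAG6, DNAI7 and DNAAF9 were named after their values were seen. Among the other lists this holds for DYNLL2, CCNO, MUC1, ESR1, PGR, TYMS, CCNB2, EPCAM, COL3A1, COL1A2, ESAM, PECAM1 and TEK. The members and lists were chosen with earlier results of these data known.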

Additional observations from a re-analysis of the deposited data

Results flagged for a closer look

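In 11 of 132 groups of 4 libraries (8.33%), 1 library lay apart from the other libraries of its group, the gap taking more of the group's range than Dixon's critical value; chance gives about 1 in 20 such groups. Replicate 1 was the high library in most of them. In fresh cells CFAP206 was at 32.2 CPM in replicate 1 (23.4 to 24.3 in the others) and CFAP53 at 122.9 (114.0 to 114.9). SPEF1 was at 18.1 CPM in fresh cell replicate 2 (20.4 to 20.6), and SPEF2 at 93.3 in replicate 4 (71.5 to 73.9). In DMEM/F12 replicate 1, DNAL1 was at 17.6 CPM (9.92 to 10.9), SPAG6 at 21.9 (9.66 to 11.5) and CFAP263 at 6.20 (3.12 to 3.6). DNAAF1 was at 0.794 CPM in DMEM/F12 replicate 3 (1.82 to 1.92). In incubation medium replicate 1, CFAP263 was at 5.61 CPM (3.47 to 3.76), RSPH14 at 5.49 (2.00 to 2.34) and CFAP107 at 0.119, a single count, with 0 in the others.

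Between the spheroid media, edgeR's quasi-likelihood test called ODAD3 (log2 difference 0.88) and CFAP298 (0.41) higher, and CFAP20 (-0.52) and SPAG1 (-0.43) lower in incubation medium.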

How the results depend on the processing

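The counts of genes lower than in fresh cells (42 and 41) did not change when any 1 library was left out, and the medians ranged from -2.84 to -2.49 in DMEM/F12 and from -2.78 to -2.44 in incubation medium. Between the media, leaving out 1 library gave 1 to 2 genes lower and 2 to 6 higher, with medians of -0.07 to 0.27. Over genes with only whole counts, 20 members could be tested: 19 were lower in DMEM/F12, 19 in incubation medium, and 0 lower and 0 higher between the media, since the 4 genes called there have counts that are not whole. The log2 fold change of CFAP36 in DMEM/F12 turned from -0.06 to 0.0129 with unscaled library totals and to 0.0101 without the filter. With the replicate block, DNAI7 was called lower in DMEM/F12 (-0.43) and higher in incubation medium than in DMEM/F12 (0.69); the pairing changed no other call of these genes. Over all genes, calls between the media went from 3522 to 4613. Low counts limit CFAP107 and SPAG16 most.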
